A study of Mus musculus with 22 samples.

Results

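Extravascular kidney B cells of mice challenged with uropathogenic Escherichia coli (UPEC) were compared with those of mice given PBS by their immunoglobulin heavy chain (Igh) repertoires. The members were all retained Igh sequences of the extravascular libraries, chosen by their labels: 6 libraries from PBS mice and 5 from UPEC mice, each from a different animal. These 11 of the series' 22 libraries held 11686 of its 17178 sequences. The other 5492 sequences came from intravascular B cells of the same 11 mice and were used only to place the extravascular values. All mice were wild-type C57BL/6 females aged 8 to 10 weeks whose bladders were inoculated 2 times, with UPEC or with PBS, and whose kidneys were taken on day 56. Live B cells were flow-sorted after an intravenous anti-CD45 antibody had marked the cells inside vessels, so that the extravascular fraction is the unlabelled one. The sort does not separate B-1 from B-2 cells. The tables hold Igh sequences and no other gene, so the identity of the sorted cells cannot be checked against marker genes.

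A heavy chain variable region is assembled from a V, a D and a J segment, and the JUNCTION, from the conserved cysteine codon to the conserved tryptophan codon, encodes the CDR3, the loop that lies at the centre of the antigen-binding site. Terminal transferase adds non-templated N nucleotides at the V-D and D-J joints in adult bone marrow but hardly before birth, so junctions without N nucleotides are typical of B-1 cells of early origin. The segments Ighv11-2 and Ighv12-3 are known from B-1a cells that bind phosphatidylcholine. Naive B cells make IgM and IgD, and class switching replaces these with other isotypes, among them Igha, the constant gene of IgA, the main antibody of mucosal secretions.

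A sequence here is a line of the deposited tables, a variable region seen in at least 2 reads. A clonotype is a JUNCTION nucleotide sequence with its V and J segment. Shares are given by sequence, where a clonotype with many sequences weighs more, and with each clonotype counted once. Several junctions carry the results below. In the first set the capitals mark the nucleotides that were annotated as D, and everything else is V, N, P or J sequence. The first line is the germline Ighd1-1 segment (GRCm38, chr12:113482170-113482192, minus strand, 23 nt), where the capitals mark the codons for Tyr-Gly-Ser-Ser, and the second is germline Ighd2-5 (chr12:113466027-113466043, minus strand, 17 nt). The clonotypes after them include the most frequent of PBS mouse 1, PBS mouse 5 and UPEC mice 2, 3 and 4. The others are an expanded Ighv3-8 clonotype of UPEC mouse 2 and the leading Igha clonotype of UPEC mouse 5. In that Ighv3-8 clonotype the annotated D matches Ighd1-1 over a long stretch with 1 mismatch.
Germline Ighd1-1: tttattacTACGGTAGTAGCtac
Germline Ighd2-5: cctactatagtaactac
PBS mouse 1, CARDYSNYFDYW: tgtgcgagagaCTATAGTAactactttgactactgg
PBS mouse 5, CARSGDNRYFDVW: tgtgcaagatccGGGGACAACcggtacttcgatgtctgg
UPEC mouse 2, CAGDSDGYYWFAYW: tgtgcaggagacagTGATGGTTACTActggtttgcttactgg
UPEC mouse 2, Ighv3-8 and Ighj4: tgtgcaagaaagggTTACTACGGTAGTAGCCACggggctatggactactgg
UPEC mouse 3, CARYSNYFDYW: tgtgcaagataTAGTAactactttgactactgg
UPEC mouse 4, Ighv3-8 and Ighj2: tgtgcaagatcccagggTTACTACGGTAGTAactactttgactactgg
UPEC mouse 5, Ighv1-58 and Ighj2: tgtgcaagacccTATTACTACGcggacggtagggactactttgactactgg

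In the second set the capitals mark N nucleotides. The first 4 junctions were found in mice of both groups and hold none, while the last 2, from PBS mouse 4 and UPEC mouse 5, hold 9 and 15.
Ighv11-2, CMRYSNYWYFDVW: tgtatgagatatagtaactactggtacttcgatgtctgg
Ighv11-2, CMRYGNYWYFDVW: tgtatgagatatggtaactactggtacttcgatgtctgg
Ighv11-2, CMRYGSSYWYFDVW: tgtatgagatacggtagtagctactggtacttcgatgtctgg
Ighv12-3, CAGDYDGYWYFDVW: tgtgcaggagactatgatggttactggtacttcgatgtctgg
PBS mouse 4, Ighv3-1 and Ighj4: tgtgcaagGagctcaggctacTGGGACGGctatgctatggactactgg
UPEC mouse 5, Ighv1-58 and Ighj2: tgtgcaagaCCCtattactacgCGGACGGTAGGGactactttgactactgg

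The libraries differed in depth with the treatment. PBS libraries held from 750 to 2134 sequences (median 1286) and UPEC libraries 244, 686, 1102, 743 and 855 for UPEC mice 1 to 5, a difference of means of -617 (p = 0.0303, exact two-sided Mann-Whitney U test). UPEC mouse 1 stood apart. It had the fewest sequences, 201 clonotypes of which the largest held 5 sequences, and 3.84 reads per sequence against 6.36 to 8.88 in the other extravascular libraries. PBS mouse 1 and UPEC mouse 3 shared 16 clonotypes and 81 identical V-D-J regions, while the other pairs among 55 shared at most 6 and 15, and whether sequences passed between these 2 libraries, by carry-over or index hopping, was not tested. Sequences of a clonotype are not independent molecules, so the 95% Wilson intervals given for single libraries cover counting error only. More sequences of a type can come from more cells or from more RNA per cell, and these cannot be told apart.

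Large clonotypes took a smaller share of the UPEC libraries. Clonotypes with 20 or more sequences, called expanded here, held 66.7% ± 8.57 of the sequences of PBS mice (SD, n = 6) and 36.7% ± 23.6 of those of UPEC mice (SD, n = 5). The PBS values ran from 56.3% to 78.9% with a median of 64.5%. The UPEC values were 0%, 63.0%, 49.7%, 32.4% and 38.1% for UPEC mice 1 to 5, so that 4 of them lay below every PBS value and UPEC mouse 2 lay inside the PBS range. The difference of -30.1 percentage points gave p = 0.0173 in an exact Mann-Whitney U test and an adjusted p of 0.199 over the 23 repertoire measures compared by sequence. At an unadjusted p under 0.05, 2 of these 23 measures were called (8.7%), and after Benjamini-Hochberg adjustment 0 of 23. With 6 mice against 5 this test cannot go below 0.00433, and a measure alone at that value has an adjusted p of 0.0996. A library of few sequences can hold few clonotypes of 20, and the threshold in sequences moves with depth as the groups do. With a threshold of 2% of the library the shares were 64.8% and 38.2% (p = 0.0519), and without UPEC mouse 1 the difference was -20.9 percentage points (p = 0.0381, exact test). Merging variants of 1 nt within clonotypes removed 47.4% of PBS and 25.1% of UPEC sequences on average, and the shares were then 35.1% and 17.8%, a difference of -17.3 points (p = 0.00866, exact test, adjusted p = 0.0996).

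**Figure D1:**
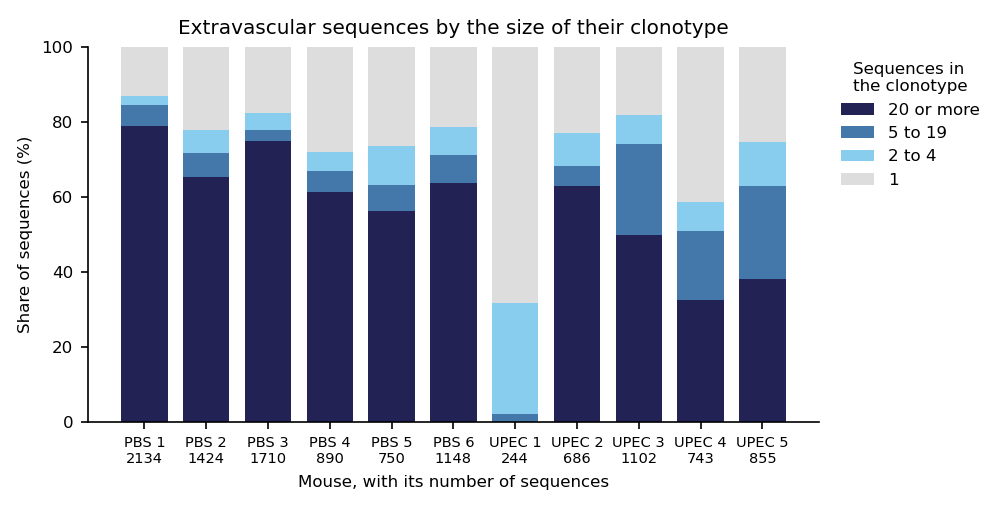
Share of the sequences of each extravascular library (%, vertical axis) in clonotypes of 20 or more, 5 to 19, 2 to 4 and 1 sequences, with the number of sequences under each mouse. Clonotypes of 20 or more take between 56.3% and 78.9% in the PBS mice, 0% in UPEC mouse 1 and 32.4% to 63.0% in the other UPEC mice.

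The number of cells sorted for each library is not given in the sources used here, so only the number of sequences could be matched. Drawn down to the 244 sequences of the smallest library, PBS libraries gave 57.7 to 95.1 unique clonotypes (median 88.3) and UPEC libraries 201, 81.1, 92.3, 140 and 113. UPEC mice 2 and 3 fell within the PBS range and the other 3 above it. The means of 81.9 ± 14.1 (SD, n = 6) and 126 ± 47.8 (SD, n = 5) differed by 43.6 clonotypes, with p = 0.0823 in the exact rank test and p = 0.0303 in an exact permutation test of the means. Without UPEC mouse 1 the difference was 24.7 clonotypes (p = 0.171, exact test). After variants of 1 nt within a clonotype had been merged, it was 16.6 clonotypes at 238 sequences, the smallest merged library (exact p = 0.429). With clonotypes 1 nt apart in JUNCTION joined to the larger, an alternative chosen after seeing the data, it was 53.2 clonotypes, with 28.4 to 69.9 in PBS mice and 199, 58.8, 71.0, 128 and 98.5 in UPEC mice 1 to 5 (p = 0.0519, exact test). Clonotypes seen in a single sequence made up 26.5% ± 6.09 of the sequences of PBS mice and 40.6% ± 17.6 of those of UPEC mice at that depth (p = 0.177, exact test, n = 6 and 5). That difference of 14.1 percentage points was 7.09 without UPEC mouse 1 (p = 0.352) and 4.14 with 1 nt variants merged, at 238 sequences (p = 0.792, both by the exact test).

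The leading clonotypes were likewise smaller in most UPEC mice. The 10 most frequent held 52.7% to 74.2% of the PBS libraries (median 63.2%) and 11.9%, 68.8%, 49.7%, 35.0% and 40.4% of the UPEC libraries, a difference of -22.0 percentage points (p = 0.0823, exact Mann-Whitney U test, n = 6 and 5). Again UPEC mouse 2 lay inside the PBS range and the other 4 UPEC mice below it. With 1 nt variants merged the means were 41.7% and 31.6%, a difference of -10.1 points (exact p = 0.177). The single most frequent clonotype held 7.23% (95% Wilson interval 5.87 to 8.88) in PBS mouse 6 and 24.5% (21.8 to 27.4) in PBS mouse 4, the extremes of the PBS group. Among the UPEC mice it ran from 2.05% (0.878 to 4.71) in mouse 1 to 28.6% (25.3 to 32.1) in mouse 2, where it was the junction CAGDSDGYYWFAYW with Ighv12-3 and Ighj3, shown above. The groups overlapped widely in this measure (p = 0.247, exact test), and its difference of -7.21 points was -2.54 with 1 nt variants merged. Without UPEC mouse 2 it was -11.7 points (p = 0.0381 before adjustment, exact test).

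Most expanded clonotypes of both groups used segments of the Ighv3, Ighv11 or Ighv12 family. The PBS mice had 5 to 16 such clonotypes each, 67 in all, and the UPEC mice 0, 6, 10, 9 and 9, 34 in all. The Ighv3 family supplied 38 of 67 in the PBS mice (56.7%) and 20 of 34 in the UPEC mice (58.8%). Ighv11 or Ighv12 supplied 23 of 67 (34.3%) and 11 of 34 (32.4%), and junctions without N nucleotides 18 of 67 (26.9%) and 8 of 34 (23.5%). A larger gap stood in the D segment, where the Ighd1 family was named in 17 of 67 (25.4%) and 14 of 34 (41.2%). Clonotypes of a mouse share that mouse, so these counts carry no test. Over all clonotypes, each counted once, the Ighd1 share averaged 33.4% in PBS and 38.9% in UPEC mice.

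The Ighd1 family share was higher in UPEC mice and was the measure in which the groups did not overlap by sequence, with the D names as deposited. Its member Ighd1-1, the DFL16.1 segment, is 23 nt long in the germline and reads Tyr-Gly-Ser-Ser in the frame marked above. Ighd1 was named in 23.1% ± 7.21 of PBS sequences (SD, n = 6) and 37.8% ± 3.44 of UPEC sequences (SD, n = 5). PBS mice ran from 12.9% to 30.8% with a median of 23.4%, and UPEC mice 1 to 5 had 34.8%, 35.4%, 40.4%, 35.7% and 42.5%. Every UPEC mouse was above every PBS mouse, which held for 1 of the 23 measures (4.35%). The nearest values were those of PBS mouse 1, 30.8% (95% Wilson interval 28.9 to 32.8), and UPEC mouse 1, 34.8% (29.1 to 41.0). The difference of 14.7 percentage points had the smallest p the design allows, 0.00433 in an exact Mann-Whitney U test, and an adjusted p of 0.0996 over the 23 measures, so that it did not pass the adjustment used here. Adjusted over the 6 D families alone, an alternative chosen after seeing the data, it passed with an adjusted p of 0.0260 in the exact test, as 1 of the 6 families (16.7%). With each clonotype counted once, the adjusted p over the 6 families was 0.182 (exact test).

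By value, the difference was larger in the expanded clonotypes than in the others, a split chosen after the values had been seen. Among sequences of expanded clonotypes the Ighd1 share was 30.2%, 15.8%, 28.6%, 0%, 4.98% and 17.8% in PBS mice 1 to 6. It was 37.0%, 42.3%, 33.6% and 44.5% in UPEC mice 2 to 5, and UPEC mouse 1 has no expanded clonotype. These values did not overlap (p = 0.00952, exact Mann-Whitney U test, the smallest p that 6 mice against 4 allow). They overlapped when Ighd1 names resting on under 6 nt were left uncounted, an alternative chosen after seeing the data. UPEC mouse 3 then had 94 of 548 sequences (17.2%), below the 30.2% of PBS mouse 1, and the group means were 13.7% and 33.1% (p = 0.0381, exact test). Among clonotypes under 20 sequences the share was 34.5% ± 2.97 in PBS mice and 36.8% ± 3.28 in UPEC mice, a difference of 2.30 percentage points (p = 0.329, exact test). By deposited D name, PBS mice ranged from 0 of 6 expanded clonotypes with Ighd1 in mouse 4 to 5 of 16 in mouse 3. UPEC mice 2 to 5 had 3 of 6, 4 of 10, 3 of 9 and 4 of 9. These counts include names on under 6 nt, for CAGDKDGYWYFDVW (4 nt) and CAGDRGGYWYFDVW (5 nt) in PBS mouse 3. In UPEC mouse 3 they include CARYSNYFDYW (5 nt).

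With each clonotype counted once, the Ighd1 share averaged 33.4% in PBS mice and 38.9% ± 2.19 in UPEC mice (SD, n = 6 and 5). The difference of 5.56 percentage points gave p = 0.0303 in the exact test and an adjusted p of 0.468 over 18 measures, of which 1 was called without adjustment (5.56%). PBS values ran from 29.7% to 38.8% and UPEC values from 36.3% to 41.7%, so PBS mouse 3 lay inside the UPEC range. When clonotypes that differ by 1 nt of JUNCTION from a larger clonotype were joined to it and each was counted once, the means were 38.7% and 39.4% (exact p = 0.662). Merging variants of 1 nt within clonotypes left the groups apart by sequence, at 29.3% and 38.3% (p = 0.00433, exact test).

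The D name can rest on few nucleotides. The most frequent clonotype of UPEC mouse 3, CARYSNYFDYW with 138 sequences, was named Ighd1-1 from 5 nt that also occur in germline Ighd2-5. Leaving Ighd1 names that rest on under 6 nt uncounted in every library, the means were 20.2% and 33.8% (p = 0.00866, exact test). The groups then overlapped, with 27.1% in UPEC mouse 3 and 30.3% in PBS mouse 1. Weighted by reads they overlapped too, at 22.8% and 37.1% (p = 0.00866, adjusted p = 0.199, exact test), with 33.3% in PBS mouse 1 and 32.7% in UPEC mouse 1. Among sequences with a D match of at least 10 nt the shares were 39.8% ± 16.4 and 46.7% ± 7.24, and the groups overlapped (p = 0.429, exact test, n = 6 and 5). The CDR3 amino acids Tyr-Gly-Ser-Ser, a reading of Ighd1-1 that needs no D name, were found in 6.81% ± 3.91 of PBS sequences and 8.87% ± 2.66 of UPEC sequences (p = 0.792, exact test). Outside Ighv11 and Ighv12 the Ighd1 share was 25.5% ± 8.22 and 46.6% ± 7.22 (p = 0.0173, exact test). Within these families the order of the means was the other way, with 18.6% ± 16.3 and 12.3% ± 11.6 (p = 0.537, exact test).

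In the intravascular libraries the Ighd1 share was 31.9% ± 5.13 in PBS mice (SD, n = 6) and 35.2% ± 4.83 in UPEC mice (SD, n = 5), with p = 0.429 in the exact test. The extravascular minus intravascular gap was -8.78 percentage points in PBS mice and 2.56 in UPEC mice, and the change of 11.3 points gave p = 0.0476 in an exact permutation test over the mice and an adjusted p of 0.548 over 23 measures. By these means the extravascular libraries of PBS mice had the lowest Ighd1 share of the 4 sets of libraries.

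**Figure D2:**
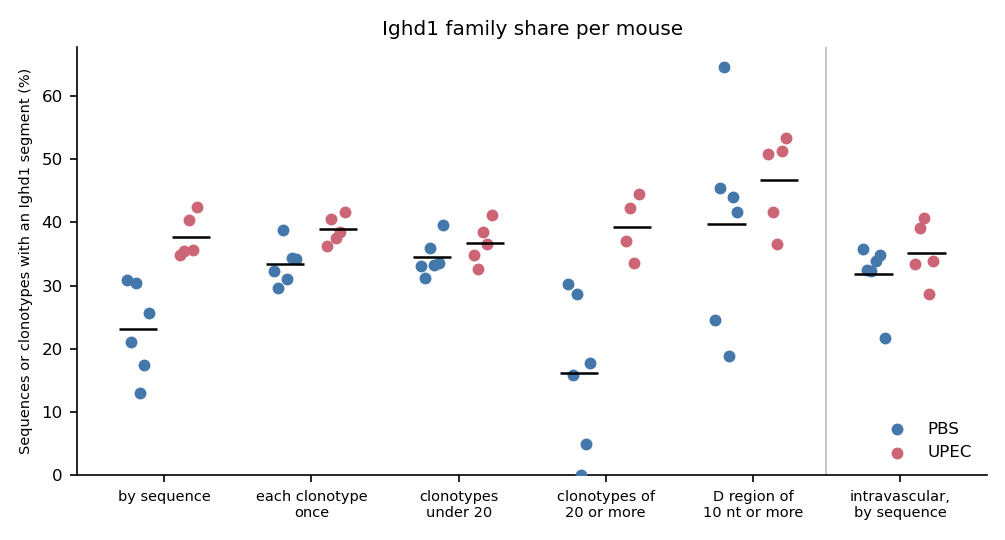
Ighd1 family share per mouse (%, points, with a black line at the group mean) for PBS and UPEC mice, in 5 ways of counting extravascular sequences and, right of the grey line, by sequence in the intravascular libraries. The groups are apart by sequence, at 12.9% to 30.8% against 34.8% to 42.5%, and, with the D names as deposited, in clonotypes of 20 or more, and overlap in the other counts.

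Of the other D families none separated the groups. Ighd2, the largest, held 48.7% ± 15.8 of PBS and 44.8% ± 6.597 of UPEC sequences (p = 0.931, exact test, n = 6 and 5). Ighd3 held 15.2% ± 12.9 and 6.55% ± 5.11 (exact p = 0.329), with 35.6% in PBS mouse 5 the highest value. Ighd4 held 5.81% ± 5.33 and 7.71% ± 4.11 (exact p = 0.329). Ighd6 held 4.69% ± 10.9 of PBS sequences because PBS mouse 3 had 26.9%, most of it in the clonotype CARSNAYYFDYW of 373 sequences, and 0.990% ± 0.636 of UPEC sequences. Ighd5 stayed under 1% in every mouse. Over the 14 D segments tested, 1 had an unadjusted p under 0.05 (7.14%) and 0 passed adjustment. That segment was Ighd1-1, with 21.2% ± 6.50 in PBS mice and 34.8% ± 3.11 in UPEC mice (p = 0.00433, adjusted p = 0.0606 over D segments, exact test), and when sequences with no D were left out of the total its adjusted p was 0.121. The exact p of 0.00433 is the smallest that the design allows, so no D segment alone could pass adjustment over 14.

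V segment usage varied more between mice than between groups. Of 17 V segments with at least 10 sequences in at least 3 libraries, which held 91.8% of the sequences, 0 had an adjusted p under 0.05 and 0 an unadjusted p under 0.05 in the exact Mann-Whitney U test (0%). On log2 shares limma gave 0 after adjustment and 1 before it. Its leading segment was Ighv3-5, which had 0% in 4 PBS mice, 0.0585% and 3.66% in PBS mice 3 and 6, and 1.23%, 5.98%, 0%, 1.88% and 5.50% in UPEC mice 1 to 5 (limma adjusted p = 0.231). UPEC mice 2, 4 and 5 and PBS mouse 6 alone had the 10 sequences of the filter, and with 5 mice at 0 no fold is given.

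Ighv12-3 had the highest mean share over the 11 mice, and its groups overlapped. It held 21.6% ± 13.01 of PBS and 22.9% ± 16.8 of UPEC sequences. PBS mice ran from 1.05% to 39.3%, and UPEC mice 1 to 5 had 7.79%, 35.1%, 44.8%, 6.86% and 20.0%. Ighv11-2 held 3.94% ± 2.26 and 3.33% ± 1.56. The 2 families together took 3.05% (95% Wilson interval 2.20 to 4.21) in PBS mouse 6 and 48.0% (45.1 to 51.0) in UPEC mouse 3, the extremes of all 11 mice, and their means of 25.6% ± 14.9 and 26.3% ± 15.7 differed by less than the spread between mice (p = 1, exact test, n = 6 and 5). Counted once per clonotype, the families held 16.9% ± 14.2 and 15.4% ± 10.6 (exact p = 0.931).

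The Ighv3 family was the largest in every extravascular library except those of UPEC mice 1 and 3. It held 40.8% to 77.7% of PBS sequences (median 54.0%) and 13.1%, 46.9%, 39.2%, 63.9% and 40.1% of UPEC sequences, a difference of -15.2 percentage points (p = 0.126, exact test). It was -8.34 points without UPEC mouse 1 (p = 0.257) and -21.0 without UPEC mouse 4 (p = 0.0190, adjusted p = 0.219, exact tests). With 1 nt variants merged it was -8.94 and per clonotype -7.29 points, and with clonotypes 1 nt apart in JUNCTION joined and counted once it turned to 5.87 points (exact p = 0.329). Its 2 leading segments were Ighv3-8, with 23.4% ± 12.8 and 16.9% ± 8.11, and Ighv3-1, with 21.0% ± 11.3 and 12.2% ± 10.3. Ighv3-3 reached 22.8% in PBS mouse 1, through the clonotype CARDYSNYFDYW, and at most 3.86% in any UPEC mouse. Ighv3-6 held 5.83% ± 5.02 and 7.70% ± 3.65.

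The Ighv1 and Ighv5 families were high in single UPEC mice. Ighv1, the J558 family and the largest of the mouse genome, held 10.7% ± 5.37 of PBS and 17.9% ± 13.2 of UPEC sequences (p = 0.792, exact test), with 37.3% in UPEC mouse 1, 26.1% in UPEC mouse 5 and at most 16.1% in any other mouse. Ighv5 held 4.59% ± 2.89 and 9.99% ± 11.3 (exact p = 0.429), with 29.9% in UPEC mouse 1. Ighv14 held 0.138% ± 0.182 and 0.495% ± 0.159, the smallest p of the 12 V families (exact p = 0.0303, adjusted p = 0.208 over families), on 30 sequences in all. Each of the remaining families, Ighv2, Ighv4, Ighv7, Ighv10, Ighv13 and Ighv15, averaged under 1.5% in both groups.

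**Figure D3:**
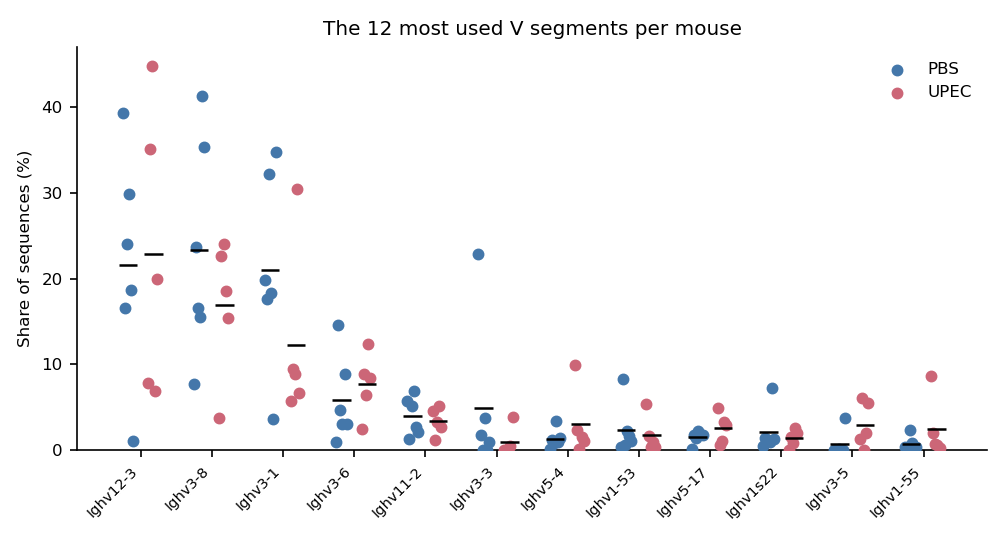
Share of sequences (%, vertical axis) of the 12 V segments with the highest mean share, a point per mouse and a black line at the group mean. For Ighv12-3 the PBS mice spread from 1.05% to 39.3% and the UPEC mice from 6.86% to 44.8%, and no segment separates the groups.

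Ighj3 was the J segment with the largest difference, and it did not pass the test. Ighj3 held 1.4995% to 25.9% of PBS sequences (median 6.68%) and 18.4%, 46.2%, 11.3%, 14.3% and 15.1% of UPEC sequences. All UPEC mice were above all PBS mice but mouse 6. The difference of 11.7 percentage points gave p = 0.0519 in the exact test and an adjusted p of 0.378, and with each clonotype counted once it was 7.29 points (p = 0.0519). The 46.2% of UPEC mouse 2 rested on the clonotype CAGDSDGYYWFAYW, with 196 of its 686 sequences, and without that mouse the difference was 5.43 points (exact p = 0.114). Without PBS mouse 6 it was 15.0 points (exact p = 0.00794, adjusted p = 0.0913). Ighj1, which encodes the WYFDV ending of most Ighv11-2 and Ighv12-3 junctions, held 33.3% ± 14.0 and 29.4% ± 9.33 (exact p = 0.662). Ighj2 held 32.5% ± 16.0 and 30.7% ± 9.90 (exact p = 0.792), and Ighj4 24.8% ± 11.6 and 18.8% ± 4.49 (p = 0.429). The extravascular minus intravascular gap of Ighj3 was -15.7 points in PBS mice and 0.179 in UPEC mice, and the change of 15.9 points gave p = 0.0238 in an exact permutation test with an adjusted p of 0.548. The gap was 29.5 points in UPEC mouse 2 and below 0 in the other 4 UPEC mice, and without that mouse the change was 8.54 points (exact permutation p = 0.0714).

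Junctions were of similar length in both groups. The mean JUNCTION length was 39.2 to 42.2 nt in PBS mice (median 40.7) and 40.5, 42.1, 40.7, 42.9 and 41.9 nt in UPEC mice 1 to 5, a difference of 0.956 nt (p = 0.429, exact test). Lengths within a library ran from 18 to 69 nt at the extremes. PBS mouse 1 had 42.8% of its sequences at 36 nt and 45.5% at 42 nt, the lengths of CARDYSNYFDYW and of the Ighv12-3 junctions, and counted once per clonotype these were 29.8% and 42.2%.

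N additions were few by sequence and more numerous per clonotype. They were counted in sequences with a named D, 236 to 2125 in a library, which left out 0.422% to 9.65% of the sequences. The 9.65% was that of PBS mouse 3, where the clonotype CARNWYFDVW, with 140 sequences, has no named D. The sum of both joints averaged 1.18 to 5.13 nt in PBS mice (median 3.68) and 4.89, 3.73, 3.12, 5.87 and 5.19 nt in UPEC mice, means of 3.51 ± 1.29 (SD, n = 6) and 4.56 ± 1.12 (SD, n = 5). PBS mouse 1 was lowest, and the groups overlapped (p = 0.247, exact test). The difference of 1.05 nt was 0.588 nt without that mouse. With each clonotype counted once the order of the means turned, with 5.64 ± 0.662 nt in PBS and 5.48 ± 0.421 nt in UPEC mice (exact p = 0.429). With clonotypes 1 nt apart in JUNCTION joined and counted once, it turned back, with 5.16 and 5.297 nt (p = 1, exact test). The V-D joint carried 1.83 ± 0.834 and 2.55 ± 0.669 nt and the D-J joint 1.67 ± 0.612 and 2.01 ± 0.490 nt. Ighv11 and Ighv12 junctions carried 1.46 ± 0.543 nt in PBS and 1.71 ± 0.963 nt in UPEC mice, and all other junctions 4.09 ± 1.68 and 5.51 ± 0.919 nt (exact p = 0.177).

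Junctions without any N nucleotide varied more than any group difference. Of the sequences with a named D, they made up 8.22% to 62.0% in PBS mice (median 23.4%) and 11.4%, 34.2%, 39.1%, 8.37% and 16.8% in UPEC mice (p = 0.931, exact test, n = 6 and 5). The 62.0% of PBS mouse 1 came with its 2 leading clonotypes, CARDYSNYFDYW and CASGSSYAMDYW, which have no N nucleotides and hold 431 and 374 sequences. Per clonotype the shares were 10.7% ± 5.46 and 9.63% ± 3.42 (exact p = 0.792). Single changes within a junction make separate clonotypes here, and their mismatched bases can be read as N, so that the values per clonotype include them.

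**Figure D4:**
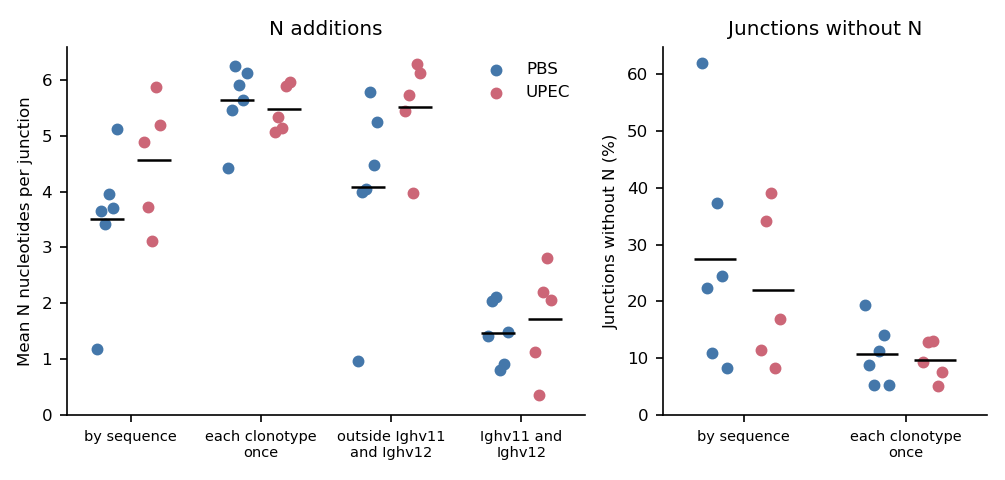
Mean N nucleotides per junction (left) and share of junctions without N (%, right), a point per mouse and a black line at the group mean, by sequence and with each clonotype counted once, and by sequence within and outside Ighv11 and Ighv12, all over sequences with a named D. Ighv11 and Ighv12 junctions lie under 3 nt in every mouse, and the groups overlap in each column.

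The CDR3 loops had a similar composition. Mean hydropathy on the Kyte-Doolittle scale, where negative values are hydrophilic, was -0.79 ± 0.11 in PBS and -0.67 ± 0.14 in UPEC mice (p = 0.177, exact test, n = 6 and 5). Mean net charge was -0.73 ± 0.38 and -0.67 ± 0.34 (exact p = 0.931), and tyrosine, the commonest residue of mouse CDR3 loops, made up 21.7% ± 3.17 and 20.9% ± 1.57 of residues (p = 0.931). Of the 20 residues, 0 had a p under 0.05, adjusted or not, by sequence or per clonotype (0%). The nearest were threonine, with 1.30% ± 0.613 in PBS and 2.501% ± 1.07 in UPEC mice, and proline, with 0.773% ± 0.523 and 1.49% ± 0.308 (both exact p = 0.0519, adjusted p = 0.519).

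Some junctions recurred in mice of both groups. By CDR3 amino acids with V and J, 60 were found in 2 or more extravascular libraries and 13 in 3 or more. Of the 60, 35 occurred in both groups, 23 in PBS mice alone and 2 in UPEC mice alone. These counts include variants that differ by 1 residue from a larger junction of the same mice. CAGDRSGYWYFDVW had 117 and 49 sequences in PBS mice 1 and 2, and its variant GAGDRSGYWYFDVW had 2 and 1. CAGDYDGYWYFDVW had 218 and 133 in PBS mouse 1 and UPEC mouse 3, and its variant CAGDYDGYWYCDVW had 2 and 1. The counts are thus not of distinct junctions, and counts without such variants were not made. The PBS mice were more numerous and their libraries larger on average, and the part of this in the counts was not tested. Ighv12-3 supplied 40 and Ighv11-2 supplied 14. These were 23 and 14 without UPEC mouse 3, and 14 and 7 without PBS mouse 1. PBS mouse 1 and UPEC mouse 3, the pair with 81 identical V-D-J regions, weigh on these counts, and carry-over between them was not tested. Without UPEC mouse 3 the counts were 43 in all, 17 in both groups, 26 in PBS mice alone and 0 in UPEC mice alone. Without PBS mouse 1 they were 27, 20, 4 and 3, so the count for PBS mice alone rested largely on that mouse. Shared junctions held 2.53% to 30.3% of PBS libraries and 1.02% to 28.9% of UPEC libraries (means 12.05% and 10.7%, p = 0.792, exact test). By nucleotides, 32 clonotypes were found in 2 or more libraries, 14 of them with Ighv12-3 and 13 with Ighv11-2.

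The widest spread was that of Ighv11-2 junctions without N nucleotides. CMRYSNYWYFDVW was found in 11 of 11 mice, with 1 to 60 sequences in PBS mice and 3, 2, 13, 34 and 2 in UPEC mice. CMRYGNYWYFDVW was found in 10, with 0 sequences in PBS mouse 5, and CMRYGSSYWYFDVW in 9. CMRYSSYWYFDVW had 1 sequence in each of 4 PBS mice and 1 UPEC mouse, and its junction is 1 nt from that of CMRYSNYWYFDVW. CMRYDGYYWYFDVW was found in 3 mice, with 4 sequences in all. The mean share of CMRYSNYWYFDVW was 1.34% in PBS and 1.502% in UPEC mice, and that of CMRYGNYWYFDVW 1.27% and 0.740%. Single mice weighed on these means. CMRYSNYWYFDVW reached 3.51% in PBS mouse 3 and 4.58% in UPEC mouse 4, and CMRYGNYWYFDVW 3.93% in PBS mouse 4 and 2.05% in UPEC mouse 1.

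Ighv12-3 junctions were found in at most 4 mice each, and a few of them were large. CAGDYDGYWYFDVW had 218 sequences in PBS mouse 1, 133 in UPEC mouse 3, the pair named above, and 2 in UPEC mouse 1. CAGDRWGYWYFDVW was found in 3 PBS mice, with 116 sequences in mouse 2, 56 in mouse 1 and 1 in mouse 4, and in UPEC mouse 3 with 18. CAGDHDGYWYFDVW and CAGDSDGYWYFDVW were each found in 2 PBS and 2 UPEC mice, and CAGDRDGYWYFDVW and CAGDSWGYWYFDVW each in 1 PBS and 2 UPEC mice. WAGDRWGYWYFDVW, with no cysteine codon at its start, had 1 sequence in each of 2 PBS mice and 1 UPEC mouse. Outside these families a junction of Ighv5-6, Ighd1-1 and Ighj2 had a single sequence in each of PBS mouse 4, UPEC mouse 1 and UPEC mouse 3. The most frequent found in PBS mice alone was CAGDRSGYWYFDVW, with 117 and 49 sequences in PBS mice 1 and 2. Next came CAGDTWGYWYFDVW, with 65 in PBS mouse 1 and 1 in PBS mouse 4. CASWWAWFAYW with Ighv1-72 followed, with 41 in PBS mouse 3 and 1 in PBS mouse 4. In UPEC mice alone it was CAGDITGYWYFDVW, with 27 in UPEC mouse 3 and 1 in UPEC mouse 1.

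Isotype was read from the 9 read counts in each sequence identifier. The name of the first, Igha, can be read, while the identifiers break off before the other names. They are called by position here, and if the order is alphabetical the second would be Ighd and the ninth Ighm, which was not tested. The ninth field held 92.4% of extravascular reads, the first 3.66% and the second 3.06%. Shares below are of the unique V-D-J regions of a library.

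Igha was high in 1 mouse of each group. It made up 0% to 8.10% in PBS mice (median 0.231%) and 1.28%, 0.457%, 0.569%, 0.138% and 16.0% in UPEC mice, means of 1.67% ± 3.19 and 3.69% ± 6.90 (p = 0.429, exact test, n = 6 and 5). In PBS mouse 1 it was 0 of 1993 unique V-D-J regions (95% Wilson interval up to 0.192%). PBS mouse 2 had 8.10% (6.77 to 9.67) and UPEC mouse 5 had 16.0% (13.7 to 18.7), and these 2 mice held 247 of the 277 sequences with Igha reads. Without UPEC mouse 5 the difference was -1.06 percentage points.

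The Igha sequences of these 2 mice differed in how they were spread over clonotypes. PBS mouse 2 had 112 such sequences, 102 of them in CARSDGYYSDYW with Ighv1-53, Ighd2-3 and Ighj2, and the rest in clonotypes of 1 sequence each that also use Ighv1-53. UPEC mouse 5 had 135 in 22 clonotypes, led by the Ighv1-58 clonotype shown above (37 of its 49 sequences), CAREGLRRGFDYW with Ighv1-64 (35 of 35), a clonotype of Ighv1-61, Ighd1-1 and Ighj4 (26 of 26) and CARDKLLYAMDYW with Ighv1-69 (15 of 16). The leading Igha clonotypes named here all use Ighv1 segments, and each carries N nucleotides, from 1 to 15. In both mice the clonotypes include some of 1 sequence that differ from a leading one by 1 residue. Examples are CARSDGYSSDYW in PBS mouse 2 and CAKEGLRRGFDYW in UPEC mouse 5. Of 49 Igha clonotypes in all libraries 1 also had reads in the ninth field, and 9 sequences had reads in more than 1 field.

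The second field was higher in UPEC mouse 1 than elsewhere. It held 0.351% to 6.90% in PBS mice and 31.5%, 4.73%, 5.12%, 12.97% and 7.46% in UPEC mice, means of 4.47% ± 2.77 and 12.4% ± 11.2 (p = 0.126, exact test, n = 6 and 5). The 31.5% of UPEC mouse 1 (95% Wilson interval 25.9 to 37.7) was above all 11 intravascular libraries, which ran from 7.83% to 24.4%. In the intravascular libraries the second field averaged 17.5% ± 4.92 in PBS and 13.9% ± 4.17 in UPEC mice. The ninth field held 94.0% ± 4.07 and 83.8% ± 11.8 (exact p = 0.247). The third to eighth fields together held 0.552% ± 0.981 in PBS and 1.58% ± 1.24 in UPEC mice (exact p = 0.0519), with the highest values in UPEC mouse 5 (3.61%) and PBS mouse 6 (2.54%).

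**Figure D5:**
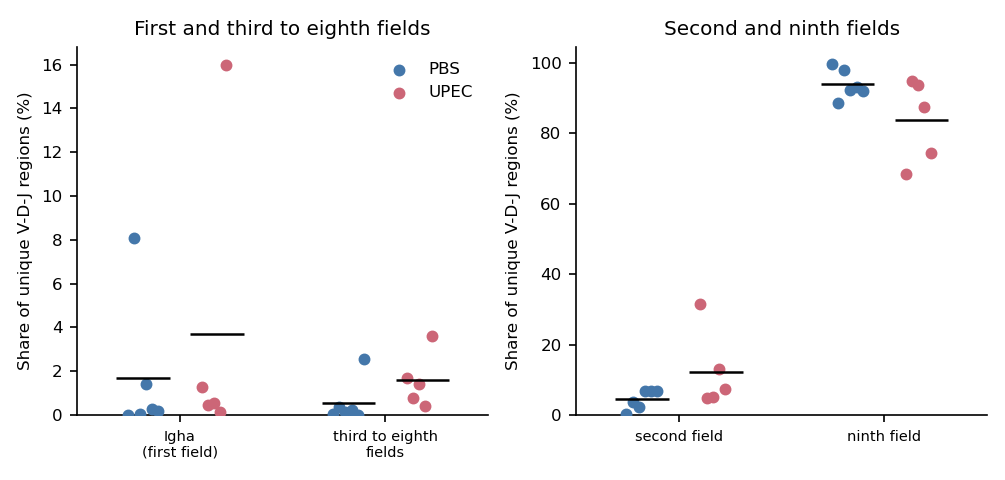
Share of unique V-D-J regions (%, vertical axes on different scales) with reads in the Igha field and in the third to eighth fields (left) and in the second and ninth fields (right), a point per extravascular mouse and a black line at the group mean. Igha stands at 8.10% in PBS mouse 2 and 16.0% in UPEC mouse 5 and at most 1.41% in any other mouse, and the second field at 31.5% in UPEC mouse 1.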

How the data were processed

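Igh variable regions were amplified from RNA of sorted kidney B cells with V-segment and barcoded constant-region primers and sequenced on a MiSeq. The authors quality-filtered the reads with QUASR and merged pairs, kept those whose barcode reads agreed, assigned the isotype by short exact matches to IMGT constant genes, and kept reads that resembled Ighv and Ighj genes by BLAST. Single-read sequences were dropped by the authors before annotation in IMGT/V-QUEST. The deposited tables have 119 columns with a line per sequence. The deposited values are sequences, positions, segment names and, in each identifier, 9 read counts, with no normalization by the authors. Lines are not molecules, and PCR and sequencing errors that pass the filter remain as separate lines.

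From these, shares per library were computed with Python 3.11.15, numpy 2.4.6, pandas 2.3.3 and scipy 1.17.1. The first name was used where V was ambiguous (2.53% of extravascular sequences), no D was named in 2.27%, and 2.02% of junctions lack the flanking cysteine or tryptophan and were kept. Groups came from the labels and mice are unpaired. Mice were compared by the Mann-Whitney U test, exact and two-sided, with p-values adjusted by Benjamini-Hochberg over 23 measures by sequence, 18 per clonotype, 17 V segments, 14 D segments, 12 V families or 20 residues, and limma 3.58.1 (R 4.3.3) on log2 shares, with a prior count of 0.5 scaled to library size, as an alternative. The change of the gap between compartments was tested by permuting mice between treatments. Unique and singleton clonotypes are expectations at 244 sequences, or at 238 with 1 nt variants merged. Segments were named in the text if in the Ighv11 or Ighv12 family, among the 20 most used, or, for up to 10 more, of smallest p. All D and J families, each library's leading clonotype and CDR3 found in 3 or more mice were eligible, as were up to 5 found in 2 or more mice of only 1 group. Other names were chosen after their values were seen. Germline positions and sequences came from GENCODE vM21 (GRCm38). The measures, tests and lists were chosen with earlier results of these data known. Alternatives were reads as weights, merging of 1 nt variants, other clonotype definitions and thresholds, leaving out each mouse, and pairing by number. Measures and tests were checked on simulated data.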

Additional observations from a re-analysis of the deposited data

Results flagged for a closer look

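In 46 groups of extravascular values, 5 had a mouse farther from the rest than Dixon's 95% criterion allows, against 2.3 expected, since chance gives about 1 in 20. PBS mouse 2 had an Igha share of 8.10% and UPEC mouse 5 of 16.0%, each far above the other mice of its group. UPEC mouse 1 had an Ighv5 share of 29.9%, UPEC mouse 2 an Ighj3 share of 46.2%, and PBS mouse 6 an Ighd4 share of 16.4%.

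Between treatments, 2 gaps between compartments differed before adjustment. The extravascular minus intravascular gap was 15.9 percentage points larger in UPEC than in PBS mice for Ighj3 (p = 0.0238) and 11.3 points larger for Ighd1 (p = 0.0476), both by an exact permutation test over 6 and 5 mice, with an adjusted p of 0.548 for each over 23 measures. Without UPEC mouse 2 the Ighj3 change was 8.54 points (exact permutation p = 0.0714), and leaving out each mouse in turn moved the Ighd1 change between 8.90 and 13.9 points (exact permutation p from 0.0159 to 0.0952).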

How the results depend on the processing

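Of 444 alternative values for 28 results, 420 kept the direction and the side of the threshold of the reported value, 23 turned the direction in 12 results, and 1 crossed the adjusted threshold. That was the Ighd1 difference of 14.7 percentage points adjusted over the 6 D families alone, an alternative chosen after seeing the data (adjusted p = 0.0260, exact test), and the next smallest adjusted p of any alternative was 0.0730. None of the turned results had passed a test. The cause of these turns was not tested. The combined Ighv11 and Ighv12 share, 0.699 percentage points higher in UPEC mice, was -0.842 with 1 nt variants merged, -1.51 per clonotype and -0.406 per joined clonotype. Without PBS mouse 2, 5 or 6 it was -0.858, -0.145 or -3.80, and without UPEC mouse 2 or 3 it was -1.81 or -4.74, and at most 4.60 (without PBS mouse 1). N additions were -0.160 nt per clonotype. Leaving out a mouse moved the share of junctions without N between -9.83 and 1.34 points (without PBS mouse 1) and the charge difference between -0.0785 (without PBS mouse 1) and 0.193, with -0.0451 without UPEC mouse 4. The Ighj2 difference moved between -5.98 and 3.66 points (without PBS mouse 2), with 2.49 without UPEC mouse 2, the tyrosine difference between -1.33 and 0.295 points (without PBS mouse 2), and the Igha difference between -1.06 (without UPEC mouse 5) and 3.30 points. With clonotypes 1 nt apart in JUNCTION joined and counted once, an alternative chosen after seeing the data, the differences were -0.0591 nt in JUNCTION length, -6.30 points for Ighv1, 5.87 for Ighv3, -0.552 for Ighv5, 1.47 for Ighj1 and 0.189 for Ighj2.

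Leaving out a mouse moved the Ighd1 difference between 12.6 and 16.2 points (p from 0.00794 to 0.00952) and the expanded share between -36.7 and -20.9 points. Merging 1 nt variants removed 43.6% of sequences, 47.4% ± 10.4 per PBS library and 25.1% ± 16.8 per UPEC library.

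PBS and UPEC mice share only a replicate number and are different animals. With the replicate block, mice paired by number, the smallest p that 5 pairs allow is 0.0625, the Ighd1 difference was 15.2 points, the expanded share -30.7 points (both p = 0.0625, exact sign-flip test), the Ighv11 and Ighv12 share -3.80 points, and limma called 0 V segments. Same-numbered mice correlated between -0.370 and 0.303, and 0 of 5 UPEC mice were closest to the PBS mouse of their number.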
